A study of Mus musculus with 5 samples.

Results

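Genes of 4 enzyme families that oxidise alcohols and aldehydes or reduce carbonyl groups were examined in mouse liver: the aldehyde dehydrogenases (Aldh), the alcohol dehydrogenases (Adh), the aldo-keto reductases (Akr) and the short-chain dehydrogenases named Dhrs. They were chosen by symbol alone, from probe sets that the platform annotation assigns to exactly 1 gene. This gave 54 of 19938 genes: 21 Aldh, 7 Adh, 15 Akr and 11 Dhrs genes, of which 52 encode proteins. The other 2 are Adh6-ps1, a transcribed pseudogene, and Dhrs13os, an antisense RNA. The samples were livers of 5 male wild-type C57BL/6N mice aged 5 to 6 months, with 1 array per mouse. All 5 mice had received 65 mg/kg streptozotocin, a toxin of insulin-producing beta cells, on 5 days between 10 and 16 weeks of age. All 5 then ate chow with bezafibrate, a lipid-lowering drug of the fibrate class and an agonist of the PPARs (peroxisome proliferator-activated receptors), for 8 weeks from 2 weeks after the injections. The chow held 0.25% or 0.5% bezafibrate by weight and the labels do not give the amount per mouse, so unequal amounts and any further difference among the mice cannot be told apart. Mice under other treatments are not analysed here, so the comparisons concern how far mice given both agents differed in each gene, and no effect of either agent.

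Aldehydes form in liver from ethanol, retinol, amino acids, lipid peroxides and fatty alcohols. Alcohol dehydrogenases and several Dhrs enzymes pass an alcohol to the aldehyde or back, aldehyde dehydrogenases oxidise the aldehyde to an acid, and aldo-keto reductases reduce aldehydes and the keto groups of steroids and sugars. Aldh3a2, which encodes fatty aldehyde dehydrogenase, is a known target gene of PPARA in mouse liver, and several Akr1b and Akr1c genes are known targets of NRF2, a transcription factor of the response to oxidants and electrophiles.

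The values were log2 signals in which a difference of 1 is a doubling of signal. Each gene has its own probes, so levels were compared within a gene only. A gene was taken as detected on an array when it exceeded a brightness floor between 5.59 and 6.07. The floor was set, array by array, at the 95th percentile of 1210 probe sets for receptors of smell and pheromones (Olfr and Vmn genes). Of the 54 genes, 44 exceeded this floor in all 5 mice, against 60.0% of all genes, 1 (Dhrs13) in 4 mice, and 9 in none. The 9 were Adh6a, Adh6b, Akr1c21, Akr1cl, Aldh1a2, Aldh1l2, Aldh3a1, Dhrs2 and Dhrs7c, with means as low as 3.95 (Akr1c21). The 6 hepatocyte markers (Alb, Apoa1, Ttr, Serpina1c, Hnf4a and Asgr1) exceeded the floor in all mice. Array medians lay between 6.22 and 6.31, and mouse 4, with the highest floor, had the lowest correlation with another array (Pearson's r of 0.971 with mouse 1, across probe sets, which are not independent replicates).

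Most of the 45 genes whose mean exceeded 5.77, the same percentile of the receptor probe sets' means, differed little between the mice. The median SD over 5 mice was 0.10, with a median 1.21-fold span between the highest and the lowest mouse, against 0.12 and 1.22-fold over all 13336 genes tested. By family the median SD was 0.073 for the 18 Aldh genes, 0.083 for 5 Adh, 0.12 for 13 Akr and 0.12 for 9 Dhrs genes. Among genes with a mean above 10, where signals vary less, the median SD was 0.084 for 24 of the genes, against 0.094 for all 1523 such genes. For the 21 others it was 0.15, against 0.12 for all tested genes with a mean up to 10. A variance above that expected at the gene's level was found for 0 of the 45 by limma's F test with Benjamini-Hochberg adjustment over 14586 probe sets, where 0.357% of all probe sets passed. A p that misses the threshold does not show that the mice were alike. At an unadjusted p under 0.05, 6 of the 45 (13.3%) passed, against 6.34% of all probe sets. In 23 of the 45 the variance was below the expected one, which was so for 53.0% of all tested genes. In 3 of the 45 (Adh7, Akr1c13 and Dhrs4) 1 mouse stood apart by Dixon's 95% value, against 5.65% of all tested genes. The SD fell by more than 1.5 times without 1 of the mice in 27 of the 45 (60.0%), against 46.6% of all tested genes. Technical replicates were not measured, so the spread includes that of the assay.

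**Figure D1:**
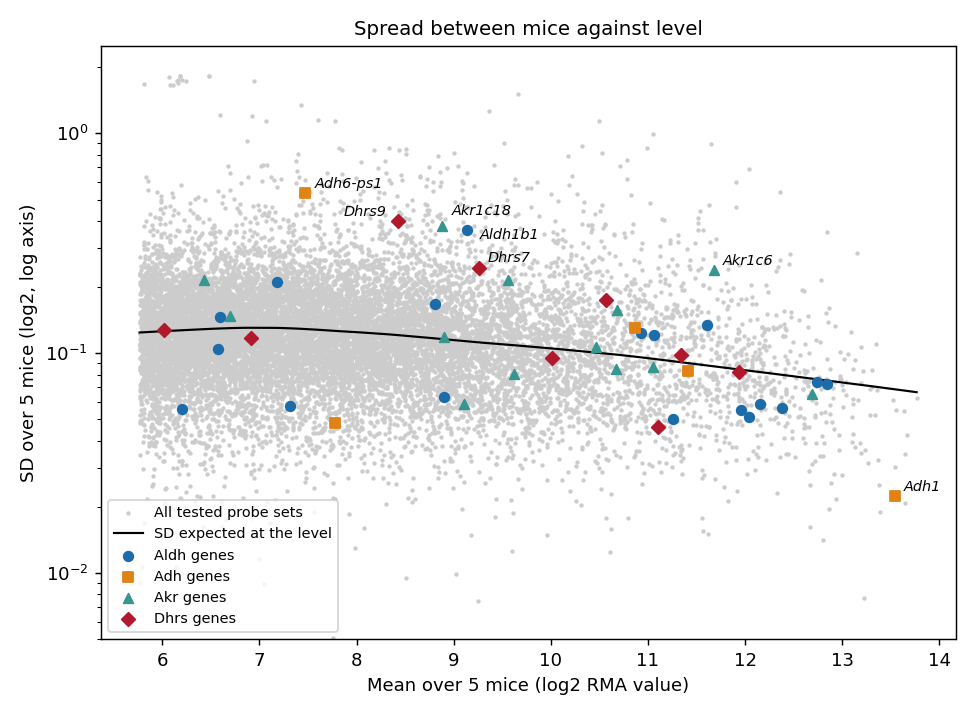
SD over the 5 mice (log2, log axis) against the mean log2 value, for all tested probe sets (grey dots) and the 45 genes (coloured by family). The line is the SD expected at each level. Adh6-ps1, Dhrs9, Akr1c18 and Aldh1b1 lie farthest above it, with SDs of 0.54, 0.40, 0.38 and 0.36, and Adh1 lies below it at 0.022.

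The widest spreads belonged to Dhrs9, Aldh1b1, Akr1c18 and the pseudogene Adh6-ps1. Dhrs9 encodes a retinol dehydrogenase that also acts on steroids. It had values of 8.25, 8.79, 7.85, 8.41 and 8.80 in mice 1 to 5 (mean 8.42 ± 0.40, SD, n = 5), a 1.93-fold span with mouse 3 lowest and mice 2 and 5 alike at the top. Its variance did not pass (limma adjusted p = 0.297). Aldh1b1, a mitochondrial enzyme that oxidises acetaldehyde, had values of 9.06, 9.32, 8.55, 9.29 and 9.48 (mean 9.14 ± 0.36, SD, n = 5). Mouse 3 again stood lowest, and without it the SD was 0.17 (limma adjusted p = 0.320 with all mice and 0.989 without mouse 3). The SD of Dhrs9 without mouse 3 was 0.28. The labels call the mice biological replicates.

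Dhrs9 and Aldh1b1 shared their order of mice, 3, 1, 4, 2, 5 from low to high, with Akr1b8 and Akr1c19. Akr1b8, an aldose reductase-like enzyme, had 6.27, 6.53, 6.16, 6.49 and 6.70 in mice 1 to 5, near the floor but above it in each. Akr1c19, an NAD-dependent dehydrogenase of the Akr1c group, had 10.56, 10.71, 10.51, 10.70 and 10.91, a 1.32-fold span. These 4 of 45 genes (8.89%) compare with 1.27% of all tested genes in that order. The 45 genes showed 34 different orders, and this one was picked after the values were seen because it was the most frequent. Neighbouring ranks were close in places, as between mice 2 and 5 in Dhrs9 and between mice 2 and 4 in Aldh1b1. With the arrays quantile-normalized the order held for Akr1b8, Akr1c19 and Dhrs9, and with the arrays centred on their medians for Akr1b8, Akr1c19 and Aldh1b1.

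The promoter windows of these 4 genes are shown because the genes shared an order of mice, with those of Akr1c6, a gene of the same cluster as Akr1c19 that stood lowest in the mouse where Akr1c19 stood highest, and of the PPARA target Aldh3a2. Each window runs from 250 bases before to 50 after the start that the RefSeq promoter table (build GRCm38.p6) uses for the gene, on the gene's strand. For Akr1c19, Akr1c6 and Aldh3a2 this start is not the outer end of the annotated gene, and match positions are counted from it. They are chr2:69380212-69380511 (+) for Dhrs9, chr4:45798772-45799071 (+) for Aldh1b1, chr6:34353896-34354195 (+) for Akr1b8, chr13:4233490-4233789 (+) for Akr1c19, chr13:4434093-4434392 (+) for Akr1c6 and chr11:61267137-61267436 (-) for Aldh3a2. Capitals mark matches, on either strand, to AGGTCA (the hexamer that nuclear receptors bind), TGACNNNGC (the core of the element bound by NRF2) and TATAAA.
Dhrs9: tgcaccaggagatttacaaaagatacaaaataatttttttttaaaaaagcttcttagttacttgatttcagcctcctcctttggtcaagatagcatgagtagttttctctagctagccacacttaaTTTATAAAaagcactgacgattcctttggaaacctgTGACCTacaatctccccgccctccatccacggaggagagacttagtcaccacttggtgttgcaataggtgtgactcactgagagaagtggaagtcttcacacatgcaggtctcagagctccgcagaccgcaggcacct
Aldh1b1: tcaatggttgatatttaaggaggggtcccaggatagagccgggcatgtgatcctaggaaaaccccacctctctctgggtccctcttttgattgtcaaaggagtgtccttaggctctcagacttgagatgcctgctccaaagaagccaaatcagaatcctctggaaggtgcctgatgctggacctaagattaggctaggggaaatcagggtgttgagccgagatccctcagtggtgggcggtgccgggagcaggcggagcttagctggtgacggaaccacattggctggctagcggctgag
Akr1b8: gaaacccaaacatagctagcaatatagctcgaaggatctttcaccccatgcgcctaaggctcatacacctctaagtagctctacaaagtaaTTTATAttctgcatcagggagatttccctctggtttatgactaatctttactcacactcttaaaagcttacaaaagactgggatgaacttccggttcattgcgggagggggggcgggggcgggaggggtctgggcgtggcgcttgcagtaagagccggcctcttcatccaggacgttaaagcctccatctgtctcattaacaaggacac
Akr1c19: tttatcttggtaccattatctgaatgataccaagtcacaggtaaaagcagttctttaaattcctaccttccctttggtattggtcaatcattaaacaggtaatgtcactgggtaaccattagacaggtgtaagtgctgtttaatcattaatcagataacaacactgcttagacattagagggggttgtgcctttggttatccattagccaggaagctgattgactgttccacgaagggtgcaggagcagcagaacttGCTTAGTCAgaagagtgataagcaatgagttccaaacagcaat
Akr1c6: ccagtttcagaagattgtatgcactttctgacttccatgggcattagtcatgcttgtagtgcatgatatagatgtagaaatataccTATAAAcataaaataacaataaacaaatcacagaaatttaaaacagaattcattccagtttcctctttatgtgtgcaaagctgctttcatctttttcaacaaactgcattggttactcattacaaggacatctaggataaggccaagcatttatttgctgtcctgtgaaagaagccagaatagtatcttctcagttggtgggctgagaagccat
Aldh3a2: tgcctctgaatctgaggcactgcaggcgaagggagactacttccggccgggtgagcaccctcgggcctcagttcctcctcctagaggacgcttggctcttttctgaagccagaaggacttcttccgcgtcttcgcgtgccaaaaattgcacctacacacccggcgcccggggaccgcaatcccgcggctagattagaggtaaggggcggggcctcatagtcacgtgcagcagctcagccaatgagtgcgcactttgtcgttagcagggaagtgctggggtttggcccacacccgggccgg

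The window of Dhrs9 held AGGTCA at -88 and 2 overlapping TATAAA matches at -124 and -122, counted from that start. That of Akr1c19 held TGACNNNGC at +8, and those of Akr1b8 and Akr1c6 held TATAAA at -159 and -164, while no match lay in the windows of Aldh1b1 and Aldh3a2. Windows were found for 44 of the 54 genes, 49 in all. AGGTCA was in 9 of the 49 (18.4%) against 16.3% of all 32851 windows, TGACNNNGC in 5 (10.2%) against 12.4%, and TATAAA in 8 (16.3%) against 13.6%. The tandem AGGTCANAGGTCA, the full element bound by PPARs with RXR in its consensus form, was in 0 of the 49 and in 0.0396% of all windows. In GC content the windows differed widely, with 36.0% and 0 CpG dinucleotides for Akr1c6 and 61.7% and 21 for Aldh3a2. A match says that these letters are in the window, and the absence of a match covers this window only.

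**Figure D2:**
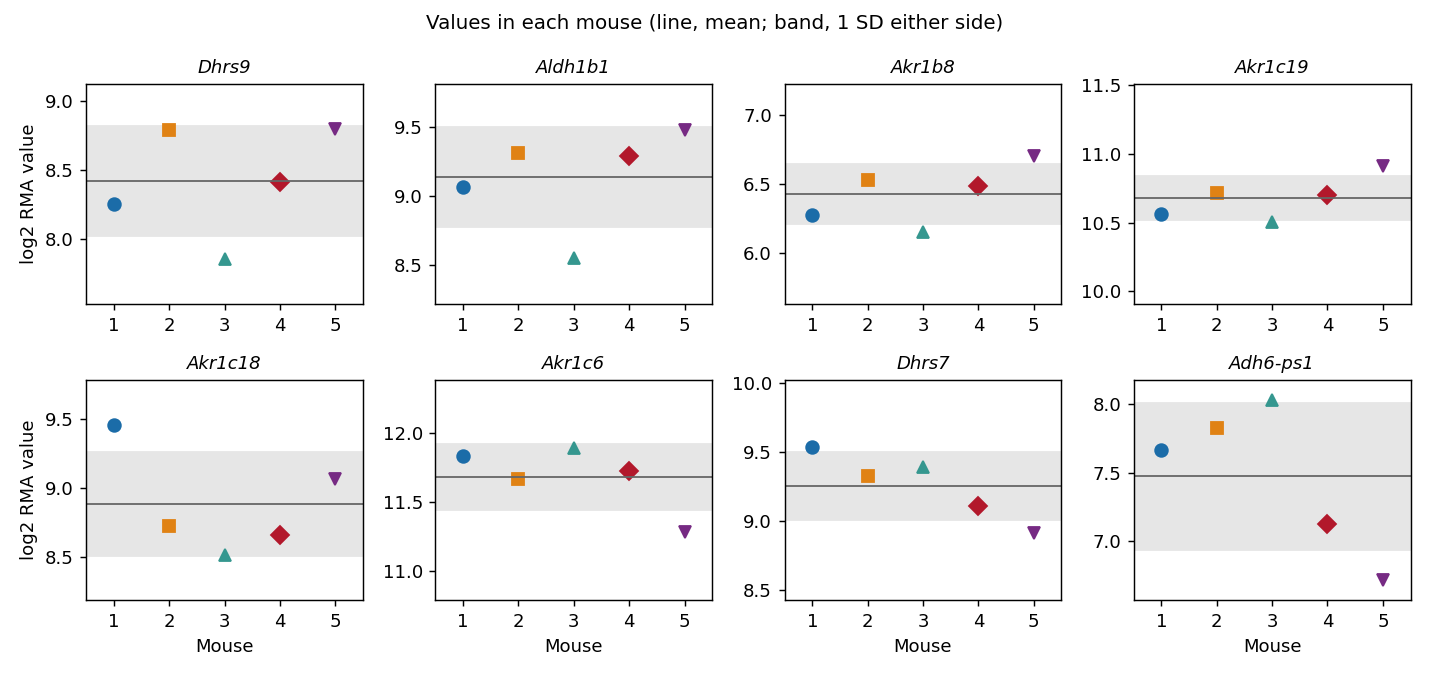
Log2 values in each mouse (symbols) for 8 genes, with the mean (line) and 1 SD on either side (band); all panels span the same range of 1.6 log2 units. In the upper row mouse 3 is lowest and mouse 5 highest in each gene, and in Akr1c6, Dhrs7 and Adh6-ps1 mouse 5 is lowest.

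Among aldehyde dehydrogenases of retinaldehyde, Aldh1a1, which makes retinoic acid, had values of 12.82, 12.91, 12.81, 12.76 and 12.94 in mice 1 to 5 (SD 0.072). Its close relative Aldh1a7, which lies beside it on chromosome 19, had 11.98, 12.04, 11.92, 11.94 and 11.91 (SD 0.055). They spanned 1.13-fold and 1.10-fold. Aldh1a3 and Aldh1a2 oxidise retinaldehyde like Aldh1a1. Aldh1a3 lay close above the floor at 6.12 to 6.26, and Aldh1a2 lay below it at 4.45 to 4.77. Aldh2, the mitochondrial enzyme that clears acetaldehyde after ethanol, spanned 1.09-fold, with 12.13 in mouse 1 and at most 12.04 in the others. Its SD of 0.051 compares with 0.083 expected at its level, and that of Aldh1b1 with 0.11.

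Aldh3a2 oxidises fatty aldehydes and completes the omega-oxidation of fatty acids that Cyp4a enzymes begin. It had values of 12.67, 12.83, 12.67, 12.73 and 12.80 in mice 1 to 5 (mean 12.74 ± 0.074, SD, n = 5), a 1.12-fold span with mouse 2 highest. The 9 tested Cyp4 genes of omega-oxidation, the partners of this step, had a median SD of 0.080, and their widest members were Cyp4f14 (SD 0.54, limma adjusted p = 0.137) and Cyp4f16 (0.33). Its neighbour Aldh3a1, known from the cornea, lay below the floor at 5.19 to 5.41. Aldh3b1, which acts on aldehydes of lipid peroxidation, was more spread (SD 0.21), with 7.39, 7.19, 7.13, 6.86 and 7.35. Without mouse 4 its SD was 0.13. Aldh3b2 lay between 6.42 and 6.69. For Aldh3b3 the probe sets disagreed: the brightest, which stands for the gene, had a mean of 8.90, and the other 2 had means of 5.33 and 4.27, below the floor. The annotated spans of Aldh3b2 and Aldh3b3 overlap, and 1 further probe set assigned to both was not used.

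Aldehyde dehydrogenases of amino acid breakdown were lowest in mouse 5 in several cases, by small amounts. Aldh4a1, of proline breakdown, had 10.96, 11.08, 10.96, 10.89 and 10.74 in mice 1 to 5. Aldh6a1, of valine breakdown, had 11.04, 11.17, 11.16, 11.10 and 10.87. Both were highest in mouse 2 and lowest in mouse 5, with SDs of 0.12. Aldh1l1, which oxidises formyltetrahydrofolate in the cytosol, had 11.77, 11.71, 11.57, 11.56 and 11.42 (SD 0.13). Its mitochondrial counterpart Aldh1l2 lay below the floor. Aldh8a1, of tryptophan breakdown, spanned 1.10-fold around 11.26, and Aldh9a1, of carnitine synthesis, 1.11-fold around 12.16. These genes too were lowest in mouse 5. Aldh7a1, of lysine breakdown, had 12.39, 12.43, 12.30, 12.44 and 12.37 and was lowest in mouse 3. Aldh5a1, which oxidises succinic semialdehyde, had 8.85, 8.98, 8.94, 8.62 and 8.64 (SD 0.17), with mice 4 and 5 below the others. Aldh18a1, of proline synthesis, lay between 6.44 and 6.78 (SD 0.15), and Aldh16a1 between 7.28 and 7.42 (SD 0.057).

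Of the 45 genes, 17 (37.8%) were lowest in mouse 5, against 21.6% of all tested genes. Besides those named above these were Adh4, Adh5, Adh6-ps1, Akr1c6, Akr1c20, Aldh1a3, Aldh1a7, Aldh3b3, Aldh16a1, Dhrs3, Dhrs7 and Dhrs7b. For Aldh3b3 this held for the brightest probe set only. Its other 2 probe sets, below the floor, were highest in mouse 5 (5.53 and 4.55). The share depended on level. Among genes with a mean above 10, 12 of the 24 were lowest in mouse 5, against 475 of all 1523 such genes. With a mean up to 10, 5 of the 21 were, against 2403 of 11813 tested genes. With quantile normalization 20 of the 45 (44.4%) were lowest in mouse 5, against 22.5% of all tested genes. With arrays centred on their medians 14 (31.1%) were, against 17.8%. The related lists described below differed in this share. It was 11 of 20 (55.0%) for other carbonyl reductases and retinol dehydrogenases. For other genes of ethanol and aldehyde oxidation it was 5 of 11 (45.5%). Lower shares were found for retinoid handling (1 of 12), omega-oxidation Cyp4 genes (2 of 9) and NRF2 targets (1 of 13). Markers of pericentral hepatocytes (6 of 6 above the floor, summed log2 level 14.20 to 14.37) and of periportal hepatocytes (4 measured, all above the floor, 13.65 to 13.87) had their lowest summed levels in mouse 5 as well. Their median differences from the gene means in this mouse were -0.17 and -0.09, and that of hepatocyte markers was 0.01. Mouse 5 was the lowest in 5 of the 6 pericentral and 3 of the 4 periportal markers. The pericentral Oat (12.27, mean 12.21) and the periportal Pck1 (11.48, mean 11.43) lay above their means there. The part of these cell types in the result was not tested. In whole tissue fewer cells of a type and less RNA per cell cannot be told apart. Mouse 2 was the highest in 14 of the 45 genes (31.1%), against 25.5% of all tested genes. Mouse 4 was the lowest in 9 of the 45, against 4874 of all 13336 tested genes.

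**Figure D3:**
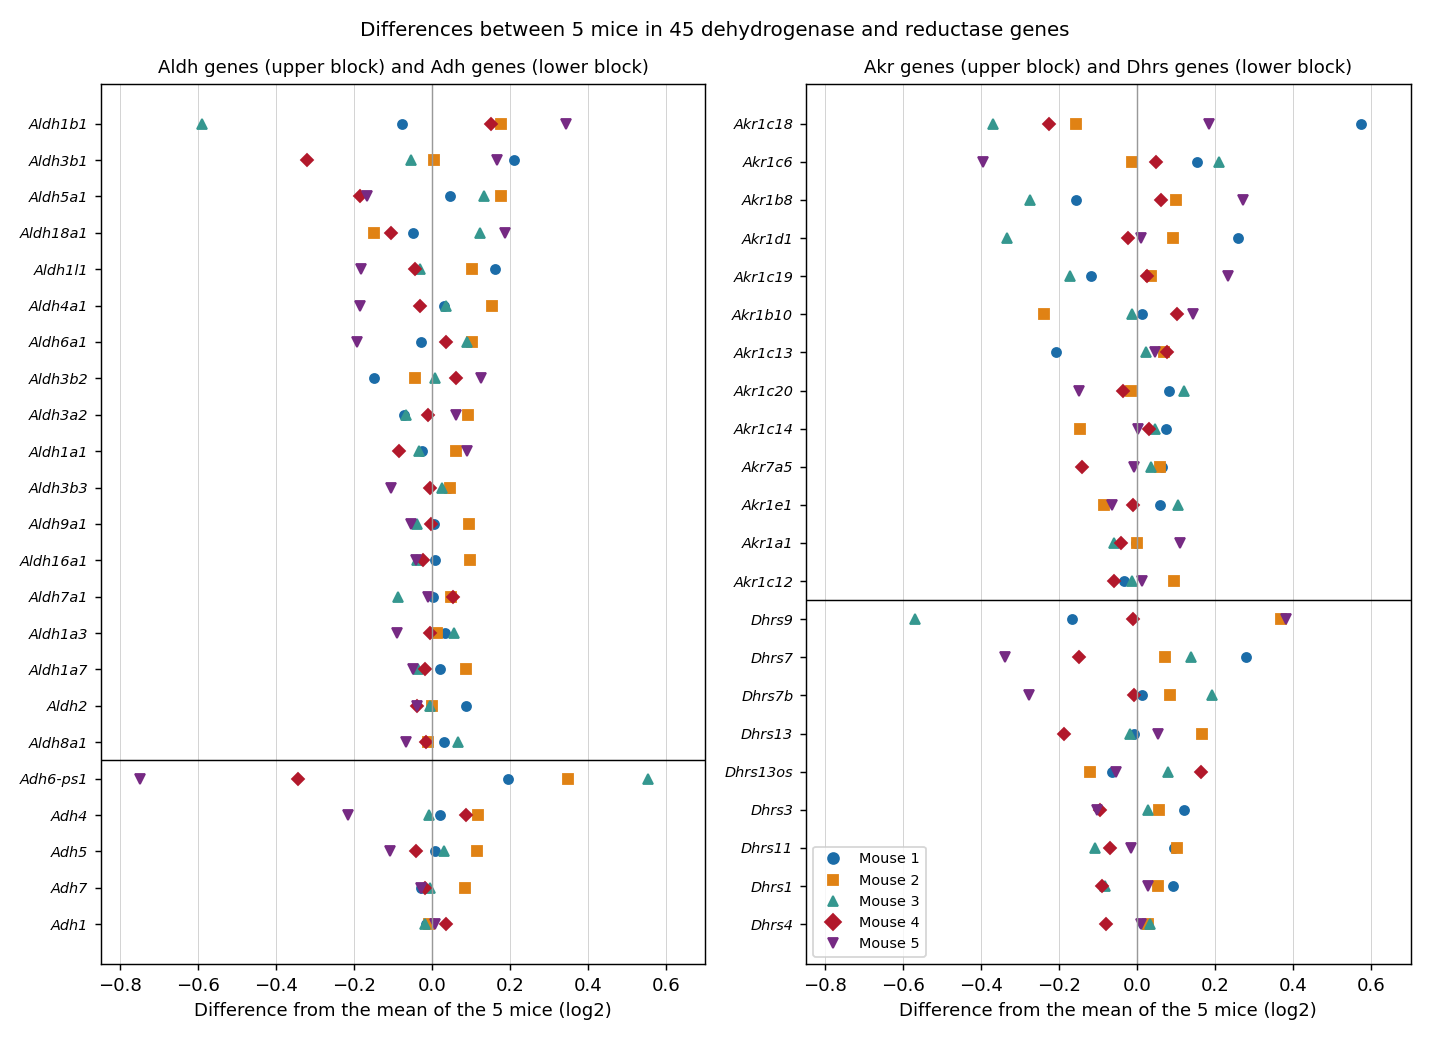
Difference of each mouse (symbols) from the mean of the 5 mice (log2) for the 45 tested genes, by family and ordered by SD within each. The farthest points are mouse 5 in Adh6-ps1 at -0.75 and mouse 3 in Aldh1b1 at -0.59.

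The 7 Adh genes lie together on chromosome 3 in the RefSeq annotation, in the order Adh7, Adh1, Adh6a, Adh6b, Adh6-ps1, Adh4 and Adh5. Adh1, the main enzyme of ethanol oxidation in mouse liver, had 13.53, 13.54, 13.53, 13.58 and 13.55 in mice 1 to 5. Its SD of 0.022 was the smallest of the 45 genes, at a level near the highest value of any probe set on an array (up to 14.12), and whether saturation narrowed it was not tested. Adh4, which also oxidises retinol, had 10.88, 10.98, 10.86, 10.95 and 10.65 (SD 0.13), lowest in mouse 5. Adh5, which clears formaldehyde bound to glutathione, had 11.42, 11.53, 11.44, 11.37 and 11.30 (SD 0.083), also lowest in mouse 5. Adh7, known as the enzyme of stomach and other epithelia, had 7.86 in mouse 2 and 7.75 to 7.77 in the others. Adh6a and Adh6b lay below the floor in all mice.

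Between these genes, the pseudogene Adh6-ps1 had the widest spread of all 45. Its values were 7.67, 7.82, 8.03, 7.13 and 6.72 in mice 1 to 5 (mean 7.47 ± 0.54, SD, n = 5). Mice 4 and 5 lay below the other mice, and the span was 2.47-fold. The variance was 17.3 times the expected one (unadjusted p = 0.00167, limma adjusted p = 0.163). Without mouse 5 the SD was 0.38. Its neighbours on the chromosome, Adh4 and Adh6b, spanned 1.26-fold and 1.18-fold, the second below the floor. Whether its probes also bind transcripts of the related Adh genes was not tested.

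**Figure D4:**
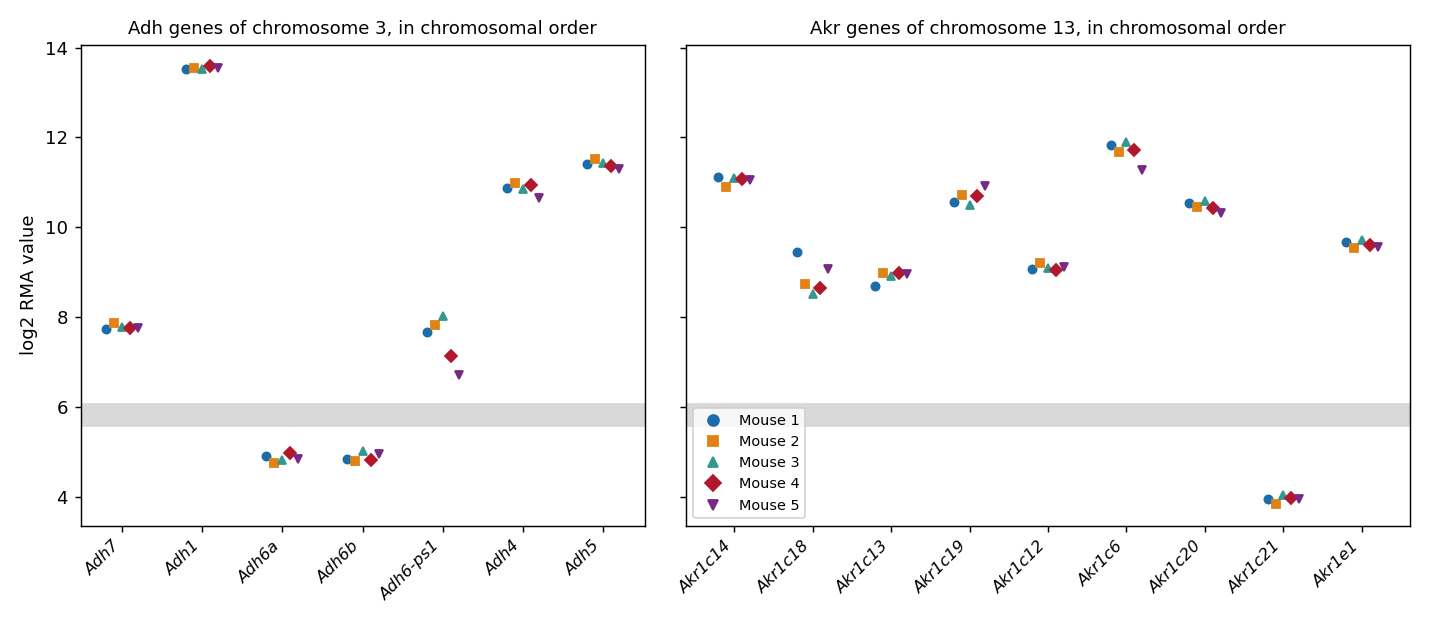
Log2 values in each mouse (symbols) of the Adh genes of chromosome 3 and the Akr genes of chromosome 13, in chromosomal order, with the range of the brightness floors of the 5 arrays (grey band). Levels of different genes rest on different probes and are not comparable. Adh6-ps1, Akr1c18 and Akr1c6 spread visibly, and Adh6a, Adh6b and Akr1c21 lie below the band.

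Of the 15 Akr genes, 9 lie on chromosome 13 side by side: the 8 numbered Akr1c genes and Akr1e1. The Akr1c enzymes reduce or oxidise keto and hydroxyl groups of steroids. Akr1c18 inactivates progesterone by its 20-alpha-hydroxysteroid dehydrogenase activity, best known from the ovary. It had 9.46, 8.73, 8.51, 8.66 and 9.07 in mice 1 to 5 (mean 8.88 ± 0.38, SD, n = 5), highest in mice 1 and 5, with a 1.93-fold span (limma adjusted p = 0.299). Without mouse 1 the SD was 0.23. Kupffer cell and macrophage markers were also highest in mice 1 and 5: 5 of the 6 measured exceeded the floor in all mice (Marco in 4), the summed log2 level lay between 11.75 and 12.19, and the median difference from the gene means was 0.28 in mouse 1, 0.11 in mouse 5 and between -0.17 and -0.13 in mice 2, 3 and 4. Other markers were high in mouse 1 as well. All 3 tested skeletal muscle markers were highest there (median difference 0.56, Mylpf below the floor, summed log2 level 8.44 to 9.20), as were the erythroid gene Alas2 (difference 0.615, the 1 erythroid gene measured) and 5 of 7 stellate cell markers (median difference 0.13, all above the floor, 12.55 to 12.74). The part of these cells in the values of Akr1c18 was not tested.

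Akr1c6, a 17-beta-hydroxysteroid dehydrogenase of mouse liver, had 11.84, 11.67, 11.89, 11.73 and 11.29 in mice 1 to 5 (mean 11.68 ± 0.24, SD, n = 5). Mouse 5 was lowest, and without it the SD was 0.10 (limma adjusted p = 0.479 with all mice). Akr1c20, its neighbour, was lowest in mouse 5 too, at 10.31, against 10.43 to 10.58 in the other mice, while Akr1c19 was highest there. Akr1c14, a 3-alpha-hydroxysteroid dehydrogenase, had 11.12, 10.90, 11.10, 11.08 and 11.05 (SD 0.086). Akr1c12 spanned 1.11-fold around 9.11, and Akr1c13 had 8.70 in mouse 1 and 8.93 to 8.98 in the others. Akr1c21, known from mouse kidney, lay below the floor. The Akr1c genes resemble each other in sequence, and binding of a transcript to the probes of a neighbour was not tested. Akr1e1, a reductase of anhydrofructose, varied by 1.14-fold around 9.62.

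Other aldo-keto reductases serve sugars, bile acids and toxic aldehydes. Akr1a1, the general aldehyde reductase that also takes part in mouse vitamin C synthesis, had 12.68, 12.69, 12.63, 12.64 and 12.79 (SD 0.065), highest in mouse 5. Akr1d1, the 5-beta-reductase of bile acid synthesis, had 9.82, 9.65, 9.22, 9.54 and 9.57 (SD 0.22), and without mouse 3, the lowest, its SD was 0.13. Akr7a5, which reduces aldehydes including those of aflatoxin, had 10.73, 10.73, 10.70, 10.53 and 10.66 (SD 0.085). Akr1b10, next to Akr1b8 on chromosome 6, had 6.46 in mouse 2 and 6.68 to 6.84 in the others (SD 0.15). Akr1b3 and Akr1b7 have no probe set named in the annotation used here and were not analysed. Akr1cl, on chromosome 1, lay below the floor.

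Of the Dhrs genes, Dhrs3 reduces retinaldehyde back to retinol and Dhrs4 is a peroxisomal carbonyl reductase. Dhrs3 had 11.46, 11.39, 11.37, 11.24 and 11.23 in mice 1 to 5 (SD 0.098), and Dhrs4 had 11.02 in mouse 4 and 11.11 to 11.13 in the others (SD 0.046). They spanned 1.17-fold and 1.08-fold. Dhrs7, an enzyme of the endoplasmic reticulum, had 9.54, 9.33, 9.39, 9.11 and 8.92 (mean 9.26 ± 0.24, SD, n = 5), a 1.54-fold span with mice 4 and 5 lowest (limma adjusted p = 0.756). Dhrs7b, a peroxisomal reductase of ether lipid synthesis, had 10.58, 10.65, 10.76, 10.56 and 10.29 (SD 0.17), also lowest in mouse 5, without which its SD was 0.090. Dhrs1 lay between 11.85 and 12.04 and Dhrs11 between 9.90 and 10.11. Dhrs13 lay between 5.83 and 6.18, below the floor in mouse 4, and Dhrs13os, whose annotated span overlaps it, between 6.79 and 7.07. Dhrs2 and the muscle gene Dhrs7c lay below the floor.

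Related genes outside the 4 families were drawn from lists, and in each list 0 genes passed limma's F test after adjustment over all probe sets. The share of all tested genes at an unadjusted p under 0.05 depended on level. It was 173 of 1523 genes with a mean above 10 and 678 of 11813 with a mean up to 10. The lists were not split by level for this share. The list of other carbonyl reductases and retinol dehydrogenases had 20 tested genes, a median SD of 0.12 and 6 genes (30.0%) at an unadjusted p under 0.05, against 6.38% of all tested genes. Its widest members were Cbr3, a carbonyl reductase (8.96, 8.66, 8.19, 8.44 and 9.27 in mice 1 to 5), and Hsd11b1, which regenerates glucocorticoid (10.15, 9.92, 9.60, 9.42 and 9.07). The mice stood in different orders in these genes, with mouse 5 highest in Cbr3 and lowest in Hsd11b1. Retinoid handling genes (12 tested) were the narrowest list, with a median SD of 0.079 and 0 genes at an unadjusted p under 0.05. The retinoic acid hydroxylase gene Cyp26b1 (SD 0.19) and the diacylglycerol acyltransferase gene Dgat1 (0.17) were widest there. Among 11 other genes of ethanol and aldehyde oxidation the median SD was 0.14, and 3 (27.3%) passed unadjusted, against the same 6.38%. Acss1 and Acss2, which activate the acetate that ethanol oxidation yields, were widest. Mitochondrial Acss1 had 8.28, 9.14, 8.01, 9.29 and 9.24 (limma adjusted p = 0.0849), and cytosolic Acss2 had 11.82, 11.56, 11.88, 11.33 and 10.99. Mouse 3, the highest in Acss2, was the lowest in Acss1, as it was in Aldh1b1, a mitochondrial enzyme that oxidises acetaldehyde. Aldh2, the mitochondrial enzyme that clears acetaldehyde after ethanol, did not share this. It spanned 1.09-fold, with mouse 1 highest and mouse 4 lowest. A link between these genes was not tested.

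NRF2 targets were the widest of these lists, with a median SD of 0.25 over 13 tested genes and 7 (53.8%) at an unadjusted p under 0.05, against 6.38% of all tested genes. The share of all tested genes depended on level, and this list was not split by level. Of the 13, 12 were highest in mouse 5 and 9 lowest in mouse 3, against 19.2% and 18.9% of all tested genes. With quantile normalization 9 of the 13 were highest in mouse 5, and with arrays centred on their medians 12. Cholangiocyte markers had median differences of -0.15 in mouse 3 and 0.09 in mouse 5. Of these, 3 of 4 measured exceeded the floor in all mice (Krt19 in 4), with a summed log2 level of 8.57 to 8.88. Their median difference was largest in mouse 2 (0.11), and Krt7 was highest in mouse 3. Kupffer cell markers had -0.13 in mouse 3 and 0.11 in mouse 5, but stood highest in mouse 1 (0.28) and lowest in mouse 4 (-0.17). The part of both cell types in the result was not tested. Srxn1 (sulfiredoxin), Gsta4, a glutathione transferase that acts on hydroxynonenal, and Ephx1, an epoxide hydrolase, stood in the order of Dhrs9 and Aldh1b1. They were 3 of the 13 (23.1%), against 1.27% of all tested genes, and that order was picked after the values were seen. With arrays centred on their medians only Srxn1 and Gsta4 kept it. The heme oxygenase gene Hmox1 had 8.92, 8.55, 8.46, 8.54 and 9.84 (limma adjusted p = 0.0929), highest in mouse 5. Of the 45 genes of the 4 families, 9 were highest in mouse 5 and 10 (22.2%) lowest in mouse 3, near the shares of all tested genes. Akr1a1, Akr1b8, Akr1c19, Aldh1b1 and Dhrs9 met both conditions (11.1%, against 7.19% of all tested genes), and with arrays centred on their medians 3 genes did (6.67%, against 6.13%). Nqo1, the quinone reductase gene often used to read NRF2 activity, had 8.64, 8.72, 8.20, 8.42 and 9.02, also lowest in mouse 3 and highest in mouse 5.

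**Figure D5:**
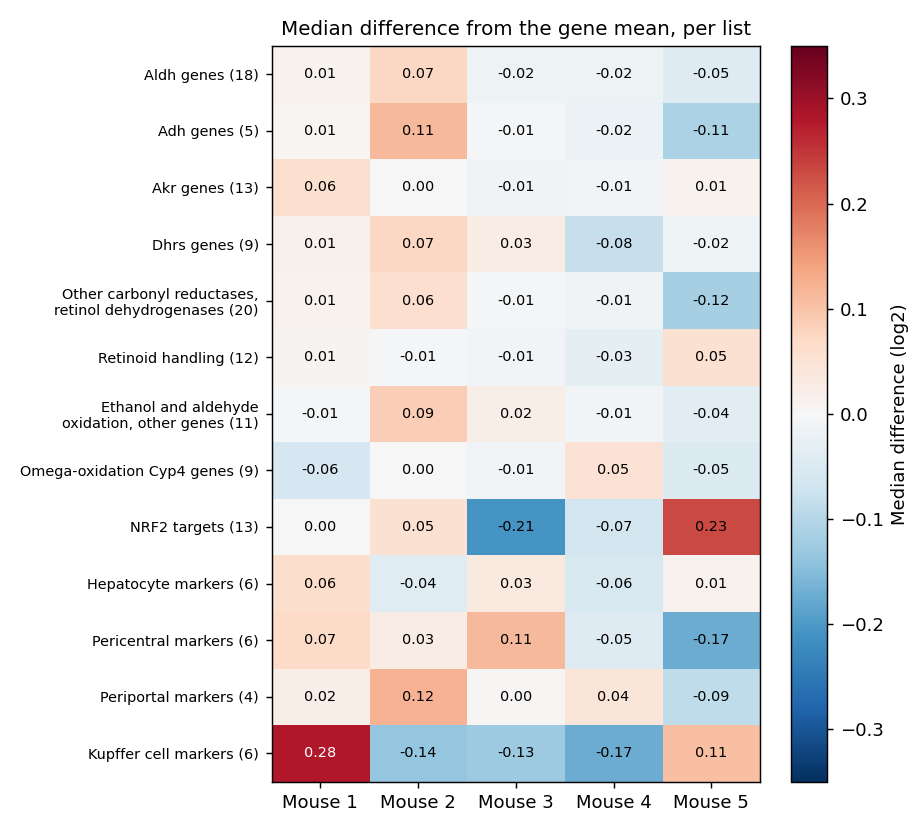
Median over the tested genes of a list (number in parentheses) of the difference from each gene's mean (log2), per mouse, for the 4 families, related lists and cell type markers. NRF2 targets stand at -0.21 in mouse 3 and 0.23 in mouse 5, Kupffer cell markers at 0.28 in mouse 1, and of the 4 families Adh lies farthest from 0, at 0.11 in mouse 2 and -0.11 in mouse 5.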

How the data were processed

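Total RNA of 5 livers, 1 array per mouse, was measured after biotin labelling. The authors deposited 1 log2 value per probe set and array (35556 probe sets), made with RMA and Affymetrix Expression Console 1.2 per the submitters' processing notes, whose settings are not given in the sources used here. RMA makes arrays alike and compresses differences near background and at the top of the scale.

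Probe sets with exactly 1 symbol in the platform annotation (21789, for 19938 genes) were used, with the brightest standing for its gene. All 54 symbols matched the RefSeq table of GRCm38.p6 by gene ID. Variances were tested with limma 3.58.1 and statmod 1.5.0 in R 4.3.3: an intercept-only fit, then an upper-tail F test (4 residual degrees of freedom) against the variance expected at the mean level from a robust fit, over 14586 probe sets of 13336 genes whose mean exceeded the floor of 5.77, with Benjamini-Hochberg adjustment at 0.05. It was tested only on data simulated under the variance model that it assumes, with independent genes. Such data cannot show whether its p-values hold on these arrays. Python 3.11.15, numpy 2.4.6 and pandas 2.3.3 did the rest. Arrays hold no read depth, so their number limits the precision. Mouse numbers are those of the titles and only name the mice.

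The genes and lists were chosen with earlier results of these data known. Values by mouse, or ranges where mice differed little, are given for fixed genes of known role, the 12 widest and the 5 narrowest of the tested genes, and from each related list the 2 widest. The order of mice shared by 4 genes, and Srxn1, Gsta4 and Ephx1, were picked after their values were seen. Alternatives were other normalizations, filters, floors, variance fits, the mean over probe sets and leaving out each mouse.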

Additional observations from a re-analysis of the deposited data

Results flagged for a closer look

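In 4 of the 54 genes 1 mouse stood apart from the other 4, by a gap to the nearest mouse of more than 0.71 of the whole range (Dixon's 95% value for 5 samples). Chance gives such a gap in about 1 of 20 genes, and 754 of the 13336 tested genes (5.65%) had one, so 3 among the 45 tested genes are near that share. Akr1c13 had 8.70 in mouse 1 and 8.93 to 8.98 elsewhere, a gap of 0.813 of the range. Adh7 reached 7.86 in mouse 2, with 7.75 to 7.77 elsewhere (0.791). For Dhrs4, mouse 4 had 11.02 and the other mice 11.11 to 11.13 (0.788). For Aldh1a2, mouse 2 had 4.77 and the other mice 4.45 to 4.54 (0.737), all below the brightness floor. The ranges were small, at most 1.25-fold in these 4 genes.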

How the results depend on the processing

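The count of genes with a variance above expectation was 0 under all 13 alternative settings run with limma's F test, with 4 to 6 genes at an unadjusted p under 0.05. The lowest limma adjusted p among the genes, that of Adh6-ps1 in the main setting (0.163), was 0.0506 with arrays centred on their medians, 0.229 with quantile normalization and 0.606 with all probe sets in the fit, and from 0.103 to 0.308 when 1 mouse was left out. The median SD was 0.10 from 0.0904 to 0.112 when 1 mouse was left out, and 0.117 with arrays centred on their medians. The number of genes above the floor in all mice was 44, 45 with the floor at the 90th percentile, 39 at the 99th, and 44 or 45 when 1 mouse was left out. Leaving out the pseudogene and the antisense RNA, an alternative chosen after seeing the data, gave 42 genes above the floor, a median SD of 0.0982 and 5 genes at an unadjusted p under 0.05. Over 360 single-gene results in 8 alternatives, 0 adjusted p-values of limma's F test changed their side of 0.05, from which all lay far in the main setting. SDs and unadjusted calls did move. Without mouse 5, Akr1c6 (SD 0.24 to 0.10) no longer passed at an unadjusted p under 0.05, and Akr1d1 did. Akr1c18 without mouse 1, Aldh1b1 without mouse 3 and Dhrs7 without mouse 1 or 5 no longer passed either. Over all probe sets the same test called 52, and 142 with arrays centred on their medians, 29 with the floor applied on all arrays, 18 without the robust step, 24 without the trend, 31 with the mean over probe sets, 0 with all probe sets in the fit (1385 at an unadjusted p under 0.05), and 0 to 69 when 1 mouse was left out, with 0 without mouse 4 (864 unadjusted), 30 without mouse 3 and 34 without mouse 2. No paired analysis was possible because there is 1 group of mice. Signals near the floor, such as those of Aldh1a3, Akr1b8 and Dhrs13, are compressed and limit what their spread can show.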
